A study of Mus musculus with 12 samples.

Results

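Collagens are the triple-helical proteins of the extracellular matrix. The 39 mouse collagen genes described here were taken from a list of gene symbols, and all 39 were found among the 21631 protein-coding genes of the RefSeq gene table that lie on the chromosomes of the peak lists. Peaks were assigned to a gene by their centres, with 10 kb allowed beyond either gene end. By that rule the collagen genes held 130 of the 34118 peaks of the WT list and 98 of the 27187 peaks of the KO list.

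The peaks came from ATAC-seq, in which Tn5 transposase cuts open DNA in isolated nuclei, on C2C12 cells, an established line of mouse myoblasts. Cells were either wild type (WT, the control) or knocked out for the transcription factor Runx1 (Runx1KO, here KO), and the lists cover day 0, when cells stood near confluency in growth medium (20% FBS). The labels give 3 samples for each genotype in this medium and do not say how the knockout was made or whether it is 1 clone. The labels also list 3 samples of each genotype at day 2 in differentiation medium, which were not analysed here. Every deposited peak carries the name of the replicate 1 library of its genotype. Whether replicates 2 and 3 were used to decide which peaks were kept is not stated, so what a kept or a specific peak had to pass is not known. The lists hold no values by replicate. There is therefore no replicate error for any value below and no test between genotypes over samples, and the read depth of the libraries is unknown.

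Each collagen molecule is wound from α chains. Fibrillar collagens form the tensile fibres of skin, bone, tendon and the connective tissue of muscle, type IV collagen forms the sheet of the basement membrane that wraps every muscle fibre, and type VI collagen forms beaded filaments beside it. Collagens of the FACIT group sit on the surface of fibrils, multiplexins lie at basement membranes, and a few collagens span the cell membrane. Collagen genes are long and have many exons, and several lie in pairs: Col4a1 and Col4a2, and Col4a3 and Col4a4, are transcribed away from each other.

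A few facts of the whole lists bear on the collagen genes. At Runx1, the targeted gene, the WT list held 19 peaks, 7 of them without a KO partner, and the KO list held 12. Of 5 muscle markers (Myod1, Myf5, Pax7, Des, Myog), 3 had a peak, with 2 at Myod1 and 2 at Des in each list and none at Myf5 and Myog. Pax7 had 1 WT peak without a KO partner and no KO peak. Of 3 fibroblast, 3 endothelial and 3 blood markers, 2, 3 and 1 had a peak, with none at Tcf21, Ptprc and Csf1r. Peak counts in the WT and KO lists were 2 and 1 at Pdgfra, 5 and 2 at Pdgfrb, and 3 and 2 at Cd68. They were 2 and 1 at Pecam1, 1 and 2 at Cdh5, and 1 and 2 at Tek. A peak is specific when no peak of the other list overlaps it by 1 bp, which gives the same peaks as the deposited lists of specific peaks, and shared otherwise. The names also carry a number that rises along each chromosome and skips values, and skipped numbers of the other list beside a specific peak are given below. What the skipped numbers stand for is not stated.

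Open chromatin lay along the bodies of the collagen genes and, where a start was known, seldom at the start. At least 1 peak of either list was found at 31 of the 39 genes (79.5%), against 65.8% of all protein-coding genes. The median collagen gene was 114 kb long and the median protein-coding gene 17.3 kb. Per 100 kb of gene and flanks, collagen genes had 2.45 peaks in WT and 1.85 in KO, beside 2.28 and 1.84 for all protein-coding genes. Peaks centred on a gene end, give or take 1 kb, were found at 9 of the 39 genes (23.1%), against 43.6% of all protein-coding genes. Of 30 collagen genes with a promoter sequence in the RefSeq table (250 bases before to 50 after a start), 5 (16.7%) had a WT or KO peak on it, against 44.0% of all protein-coding genes with such a sequence. Among genes that held a peak at all the shares were 21.7% (5 of 23 collagen genes) and 66.8%. Of all peaks assigned to any protein-coding gene by the same rule, 34.4% of WT peaks lay at a gene end and 54.0% elsewhere in a gene. For the WT peaks of the collagen genes these shares were 10.0% and 82.3%. Gene length differed with these shares, and its part in them was not tested.

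The promoters with a peak were those of Col5a1, Col5a3, Col6a2, Col1a2 and Col11a1. The first 3 carried a shared peak, Col1a2 carried a WT specific peak and Col11a1 a KO specific peak, and the sequences of 4 of them are shown because they give the letters at the few collagen starts, among those with a sequence, that had a peak. They are the bases before the outermost annotated start, 5′ to 3′ on the strand of the gene, from RefSeq on GRCm38.p6, with the bases inside the deposited peak in capitals. The windows are chr2:27886175-27886380 (+ strand) for Col5a1, chr9:20815118-20815317 (− strand) for Col5a3 and chr6:4505368-4505617 (+ strand) for Col1a2, with the WT peak in capitals, and chr3:114030290-114030478 (+ strand) for Col11a1, with the KO peak in capitals.
Col5a1: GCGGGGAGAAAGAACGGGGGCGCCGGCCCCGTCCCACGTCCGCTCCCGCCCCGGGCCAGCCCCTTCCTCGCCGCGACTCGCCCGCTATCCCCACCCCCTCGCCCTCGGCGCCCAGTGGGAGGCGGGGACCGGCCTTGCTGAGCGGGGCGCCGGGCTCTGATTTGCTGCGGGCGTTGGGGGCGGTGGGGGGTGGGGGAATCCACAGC
Col5a3: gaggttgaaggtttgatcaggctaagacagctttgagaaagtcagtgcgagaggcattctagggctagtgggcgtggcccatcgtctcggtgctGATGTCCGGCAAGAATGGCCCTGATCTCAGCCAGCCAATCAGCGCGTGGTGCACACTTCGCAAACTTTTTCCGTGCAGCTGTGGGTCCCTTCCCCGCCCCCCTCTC
Col1a2: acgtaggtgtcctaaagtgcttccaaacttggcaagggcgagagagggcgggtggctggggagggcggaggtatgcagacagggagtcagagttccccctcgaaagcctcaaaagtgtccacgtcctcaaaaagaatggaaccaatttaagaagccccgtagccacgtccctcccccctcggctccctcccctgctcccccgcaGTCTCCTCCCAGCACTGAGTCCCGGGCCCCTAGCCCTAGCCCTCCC
Col11a1: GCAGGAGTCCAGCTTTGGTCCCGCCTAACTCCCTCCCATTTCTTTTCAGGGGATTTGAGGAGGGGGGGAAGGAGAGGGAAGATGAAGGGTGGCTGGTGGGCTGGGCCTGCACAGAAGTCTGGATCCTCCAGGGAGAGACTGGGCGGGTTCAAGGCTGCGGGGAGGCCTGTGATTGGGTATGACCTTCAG

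The peak covered all 206 bases shown for Col5a1 and all 189 shown for Col11a1, but 106 of the 200 for Col5a3 and 46 of the 250 for Col1a2, those next to the start. GC content was 77.7% for Col5a1, 58.0% for Col5a3, 62.0% for Col1a2 and 60.3% for Col11a1. Fixed letters were searched on both strands. The SP/KLF letters GGGCGG occurred in all 4 windows. CCAAT occurred in 3, at bases 142 to 146 for Col1a2, 129 to 133 for Col5a3 and, on the opposite strand, 172 to 176 for Col11a1, counted from the first base shown. The E-box CAGCTG stood at bases 170 to 175 of the Col5a3 window. In Col1a2 the matches of GGGCGG, at bases 46 to 51 and 63 to 68, and of CCAAT lay outside the peak. None of the 4 held the letters searched for RUNX, ETS, AP-1 or TEAD factors or for the TATA box. Over the 250 bases before the start, the RUNX letters TGTGGT occurred in 3 of the 30 collagen genes (10.0%, Col8a1, Col17a1 and Col18a1) and in 14.1% of protein-coding genes. The ETS letters CCGGAA occurred in none of the 30 and in 17.2% of protein-coding genes, and CAGCTG in 5 of the 30 (16.7%) and 13.9%. The AP-1 letters TGANTCA were present in 1 of the 30 (3.33%) and in 7.25% of protein-coding genes, and the TEAD letters GGAATG in 4 (13.3%) and 13.3%. For the general promoter elements the shares were 36.7% and 39.9% for CCAAT, 53.3% and 46.3% for GGGCGG, and 16.7% and 13.8% for the TATA box, TATAAA. Letters of different motifs were counted apart, overlapping or not. A match of letters is not a bound site, and the sequences of the peaks inside genes were not used here.

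In each list the share of genotype-specific peaks at collagen genes was above that of the whole list. It was larger in the WT list than in the KO list, as it was over all peaks. Of the 130 WT peaks, 47 (36.2%, 95% Wilson interval 28.4 to 44.7) were WT specific, against 27.3% of all WT peaks. Of the 98 KO peaks, 15 (15.3%, interval 9.50 to 23.7) were KO specific, against 9.59% of all KO peaks. Each list held 83 shared peaks at these genes. The intervals cover counting error only and treat peaks as independent, which neighbouring peaks of 1 gene need not be. Among peaks assigned to any protein-coding gene, as all collagen peaks are, 25.6% were specific in the WT list, as were 7.95% in the KO list. The WT interval lay above both backgrounds. The KO interval contained the share over the whole list and lay above that over assigned peaks. Without collagen peaks that were also assigned to another gene, a comparison chosen after seeing the data, the shares were 36.8% and 17.2%, beside 27.5% and 9.23% of the peaks assigned to exactly 1 protein-coding gene.

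**Figure D1:**
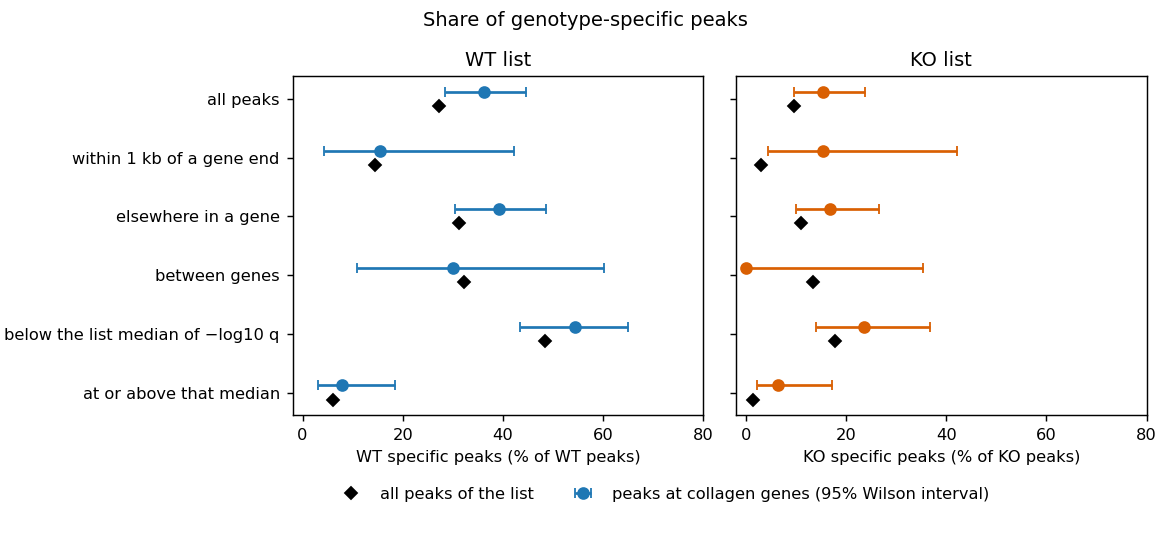
Share of genotype-specific peaks (percent, horizontal axis) in the WT list (left) and the KO list (right), for all peaks and by position and strength. Circles are peaks at collagen genes with 95% Wilson intervals and diamonds are all peaks of the list; the circle for all WT peaks lies at 36.2% and its diamond at 27.3%, and in the WT classes by strength the circles lie nearer the diamonds.

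Position and strength moved with these shares. Elsewhere in a gene, where most collagen peaks lay, 42 of 107 WT peaks (39.3%, interval 30.5 to 48.7) were specific, beside 31.3% of all WT peaks there. The KO counts in that position were 13 of 78 (16.7%, interval 10.0 to 26.5), beside 11%. Both intervals contained the share over all peaks of the list in that position. At gene ends the counts were small: 2 of 13 WT peaks (15.4%, interval 4.33 to 42.2), beside 14.4%, and 2 of 13 KO peaks (15.4%, interval 4.33 to 42.2), beside 2.99%. Here the WT interval contained its background and the KO interval lay above it. The 2 KO specific peaks there were those at Col11a1 and Col8a1. The deposited −log10 q, larger for a peak called with more confidence, was taken as strength. Both classes together, collagen peaks were weaker, with a median deposited −log10 q of 12.6 in the WT list, where the median of the list was 16.1, and 16.6 in the KO list, where it was 17.6. Specific collagen peaks were not weaker, with medians of 8.42 in WT and 8.79 in KO, beside 8.38 over all specific peaks of each list. Shared collagen peaks had medians of 18.9 in WT and 18.3 in KO, beside 21.1 and 19.1 over all shared peaks. Below the list median, 43 of 79 WT peaks (54.4%, interval 43.5 to 65.0) were specific, as were 12 of 51 KO peaks (23.5%, interval 14.0 to 36.8), beside 48.5% and 17.7% in the whole lists. At or above the median, 4 of 51 WT peaks (7.84%, interval 3.09 to 18.5) were specific, as were 3 of 47 KO peaks (6.38%, interval 2.19 to 17.2), beside 6.17% and 1.45%. By strength, the intervals contained these backgrounds except for KO peaks at or above the median, where the interval lay above. Inside genes and below the median, the WT shares were 56.7% at collagen genes and 51.6% in the whole list, and the KO shares were 26.2% and 18.9%. In the WT list the distance to the background was smaller within classes of strength than over all peaks. In the KO list it was not smaller below the median. How far strength and position account for the shares was not tested.

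**Figure D2:**
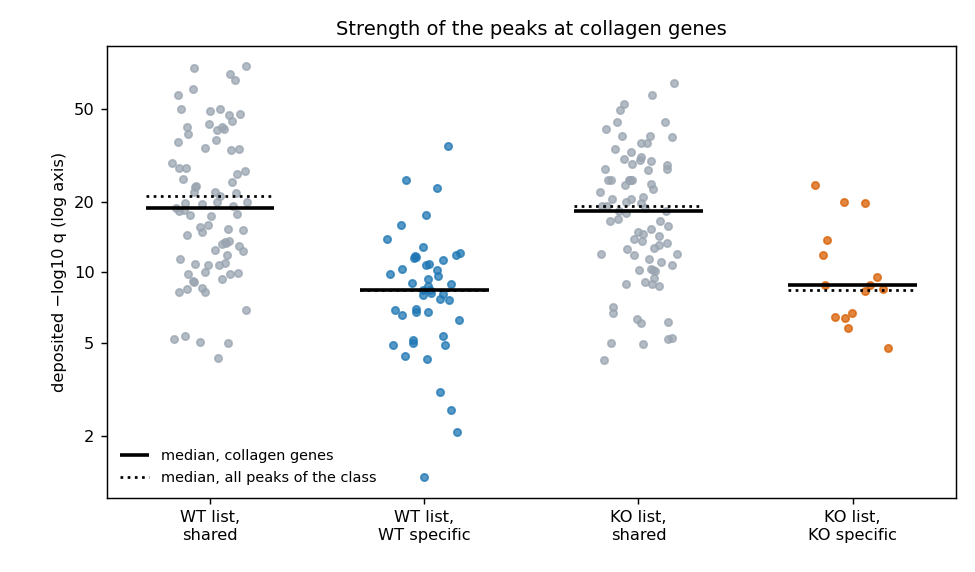
Deposited −log10 q (log axis) of each peak at a collagen gene, by list and class, with the median of the collagen peaks (solid line) and of all peaks of that class (dotted line). Specific peaks of collagen genes have medians of 8.42 in WT and 8.79 in KO, and shared peaks 18.9 and 18.3; the lists are separate libraries and their values are not on a common scale.

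Counted by gene, 23 of the 39 collagen genes (59.0%) had at least 1 WT specific peak, against 25.3% of all protein-coding genes and 39.1% of those with a WT peak. KO specific peaks were present at 10 genes (25.6%), against 7.46% of all protein-coding genes and 12.3% of those with a KO peak. The number of peaks at a gene moved with these shares. Of the 18 collagen genes with 4 or more WT peaks, 17 had a WT specific peak, and so did 81.3% of the 2382 protein-coding genes with that many. At genes with 2 or 3 WT peaks the counts were 5 of 7 collagen genes and 43.7% of protein-coding genes. Of the 10 collagen genes with 4 or more KO peaks, 6 had a KO specific peak, beside 34.5% of protein-coding genes with that many. At genes with 2 or 3 KO peaks the counts were 3 of 13 collagen genes and 14.6% of protein-coding genes. With 1 peak they were 1 of 4 and 16.5% in the WT list, and 1 of 7 and 4.85% in the KO list.

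Both kinds of specific peak occurred at 8 collagen genes (Col4a1, Col4a2, Col4a3, Col5a2, Col8a1, Col18a1, Col22a1 and Col27a1), WT specific peaks alone at 15 and KO specific peaks alone at 2, Col11a1 and Col28a1. Shared peaks alone were found at 6 genes: Col1a1, Col3a1, Col6a2, Col9a3, Col11a2 and Col23a1. The WT list had more peaks than the KO list at 20 of the 31 genes with a peak (64.5%), the same number at 9 and fewer at 2 (6.45%). Over all protein-coding genes with a peak, 36.6% had more WT peaks and 7.06% more KO peaks. The mean number of WT peaks was 3.36 at collagen genes and 1.56 at all protein-coding genes. The part of peak number in these shares was not tested. No peak of either list was found at Col4a4, Col9a1, Col9a2, Col10a1, Col13a1, Col17a1, Col20a1 and Col26a1. Type X collagen marks hypertrophic cartilage, type IX collagen is a cartilage FACIT, and types XIII and XVII are collagens of the cell membrane. Other genes of these kinds did have a peak in either list: Col2a1, Col9a3, Col11a1 and Col11a2 of cartilage, and Col23a1 and Col25a1 of the membrane. The only Col9a3 peak of each list lay 8.67 kb outside the gene and was also assigned to Mrgbp and Ogfr. The Col11a2 peaks lay outside the gene too.

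**Figure D3:**
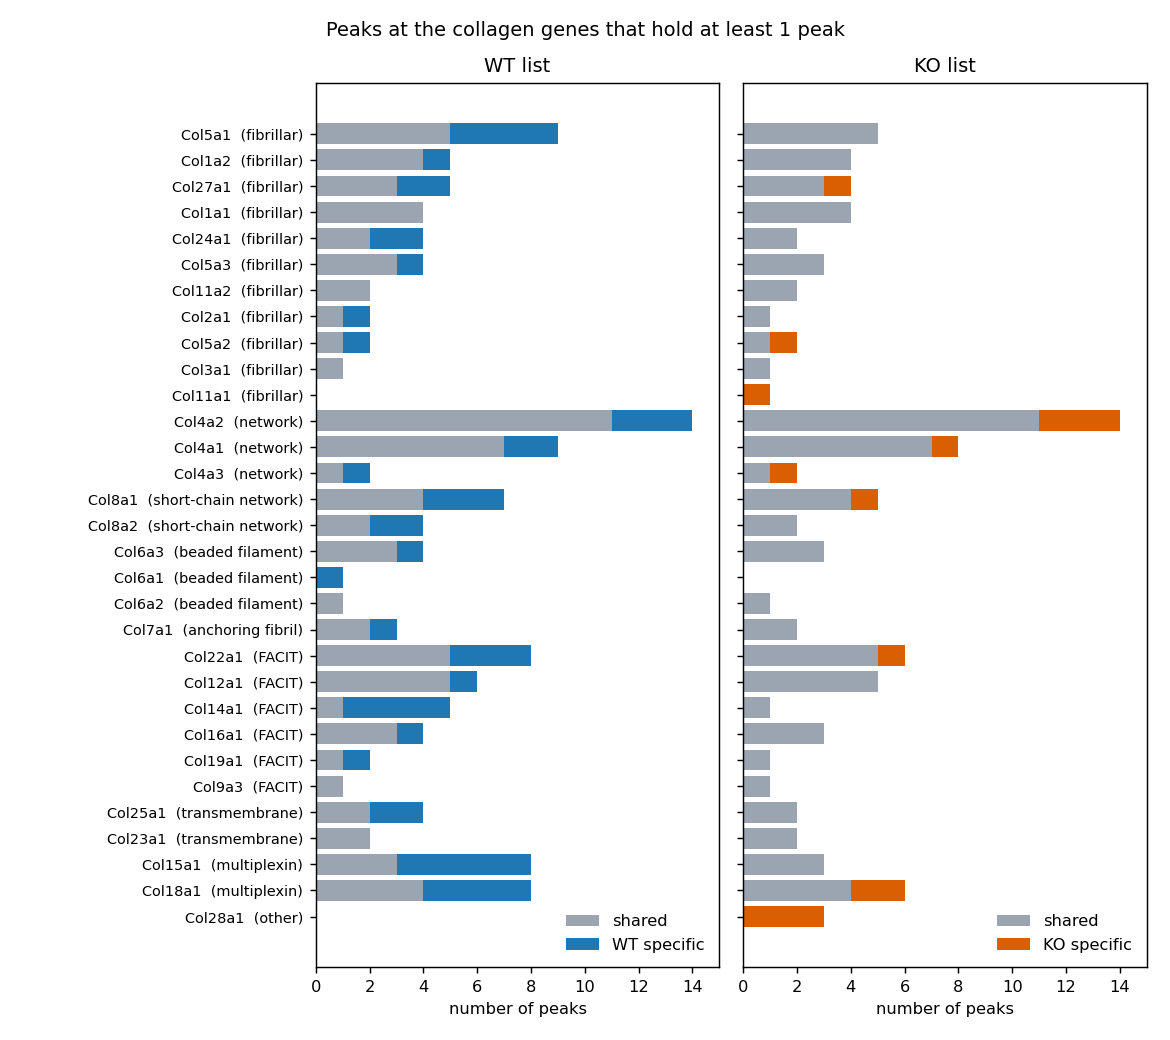
Number of peaks (horizontal axis) at each of the 31 collagen genes with a peak, ordered by subfamily, in the WT list (left) and the KO list (right). Grey is shared and colour is specific; Col4a2 has 14 peaks in each list, and Col11a1 and Col28a1 have peaks in the KO list alone.

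The fibrillar collagens had 38 WT peaks, of which 12 (31.6%) were WT specific, and 29 KO peaks, of which 3 (10.3%) were KO specific, beside 27.3% and 9.59% in the whole lists. All 11 genes of this subfamily had a peak. The chains of type I collagen, the main fibre protein of bone, tendon and fibroblasts, are encoded by Col1a1 and Col1a2. Col1a1 (chr11:94936224-94953042) had 4 peaks in each list, all shared. The strongest lay 5.29 kb beyond the gene, at chr11:94957938-94958719, with a −log10 q of 41.9 in the WT list and 38.4 for its KO partner, and was also assigned to Sgca and Hils1. The only Col1a1 peak inside the gene, chr11:94936815-94937506, was weak in each list, with a −log10 q of 9.13 and 4.97. It was centred within 1 kb of a gene end, and whether that end is the start was not determined.

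Col1a2 (chr6:4505618-4541543) had 5 WT peaks and 4 KO peaks. The strongest, at chr6:4530898-4531440 in the gene, was shared, with a fold of 16.2 and a −log10 q of 60.7 in WT and a fold of 15.9 and 64.2 in KO. The peak over the start, at chr6:4505572-4505706, was WT specific and among the weakest of the list, with a fold of 3.43 and a −log10 q of 2.57. No number was missing from the KO list between the listed KO peaks on either side of it.

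Col3a1, whose protein joins type I collagen in elastic tissue, had a single peak in each list, 6.40 kb beyond the gene, with a −log10 q of 17.6 in WT and 27.4 in KO. Type V collagen sets the diameter of type I fibrils. Col5a1 (chr2:27886381-28039510) had the most peaks of the fibrillar genes, 9 in WT and 5 in KO. The 5 shared peaks ran from the start to 50.4 kb into the gene and had a −log10 q of 8.25 to 21.1 in the WT list. The 4 WT specific peaks lay 13.4 to 53.2 kb into the gene, at chr2:27899436-27900164, chr2:27916444-27916615, chr2:27917250-27917432 and chr2:27939534-27939679, with a −log10 q of 6.79, 13.9, 10.7 and 6.56. No peak of either list lay in the rest of the gene.

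At Col5a2, which partners Col5a1, a shared peak lay at the high-coordinate end of the gene (chr1:45502953-45503244, −log10 q 19.1 in WT and 18.8 in KO). Col5a2 had no matched promoter sequence, so whether this end is its start was not determined. The gene also had a WT specific peak at chr1:45494982-45495514 (12.1) and a KO specific peak at chr1:45432021-45432197 (4.72). Col5a3 had 1 WT specific peak, at chr9:20794265-20794512 (9.0), and its strongest peak, 9.04 kb outside the gene, was shared (44.3 in WT and 31.2 in KO).

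Type XI collagen is a fibrillar collagen of cartilage. Col11a1 (chr3:114030479-114220756) had no WT peak and a single KO peak, at chr3:114030184-114030595 over its promoter, with a fold of 10.4 and a −log10 q of 19.9. It was one of 3 KO specific peaks at collagen genes at or above the KO median and ranked 129 of the 2607 KO specific peaks. In the WT list 4 numbers were missing between the listed peaks around it. Col11a2, the partner gene, had 2 shared peaks, both outside the gene. In the WT list they lay 2.38 and 7.13 kb away, and the farther was also assigned to Ring1, H2-Ke6, Slc39a7 and Rxrb.

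Col27a1 had a WT specific peak inside the gene at chr4:63310574-63310764 (−log10 q 8.74), another 9.31 kb outside it at chr4:63344237-63344375 (2.08) that was also assigned to Orm1, and a stronger KO specific peak inside the gene at chr4:63323396-63323837 (19.8, fold 9.65). Its strongest peak was shared, with a −log10 q of 70.1 in WT and 30.6 in KO. Col24a1 had 2 WT specific peaks, at chr3:145493752-145493913 (11.7) and chr3:145521754-145522126 (11.8), beside 2 shared ones. Col2a1, the main collagen of cartilage, had a WT specific peak at chr15:98001975-98002218 (6.92) and a shared peak at 47.6 in WT and 30 in KO.

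Col4a1 (chr8:11198423-11312889) and Col4a2 (chr8:11312805-11449287) encode the chains of the common type IV collagen and held 9 and 14 WT peaks and 8 and 14 KO peaks, with 1 peak of each list counted at both genes. No other collagen gene had as many as Col4a2. No peak was centred at an end of either gene. The nearest to their starts, chr8:11314751-11314892, lay 1.93 kb beyond Col4a1 and inside Col4a2 and was shared, with a −log10 q of 9.86 in WT and 6.13 in KO. The strongest was shared too, 69.7 kb from the Col4a2 start at chr8:11382140-11382806, with a fold of 14.8 and a −log10 q of 75.9 in the WT list, and 11 and 57.5 for its KO partner.

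The strongest WT specific peak of any collagen gene lay in Col4a1 at chr8:11265537-11265792, 47.2 kb from the start, with a fold of 14.2 and a −log10 q of 34.6. It ranked 27 of the 9318 WT specific peaks, and 1 number was missing from the KO list beside it. A KO specific peak of Col4a1 at chr8:11263866-11264088 (−log10 q 8.80) lay in a stretch where no WT number was missing. The other WT specific peak of Col4a1 was at chr8:11215355-11215507 (11.3).

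Col4a2 had 3 specific peaks of each genotype. The WT specific ones, at chr8:11400398-11400549, chr8:11412521-11412770 and chr8:11444220-11444385, had a −log10 q of 7.57, 4.36 and 8.0, and the third was also assigned to Rab20. The KO specific ones were at chr8:11346242-11346743, with 23.6 and a fold of 9.38, at chr8:11352614-11352805, with 9.56, and at chr8:11417850-11418033, with 5.79. The first of these was the strongest KO specific peak of the collagen genes and ranked 54 of 2607, and no WT number was missing around it. All lay in the gene, between 33.7 and 131 kb from its start.

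**Figure D4:**
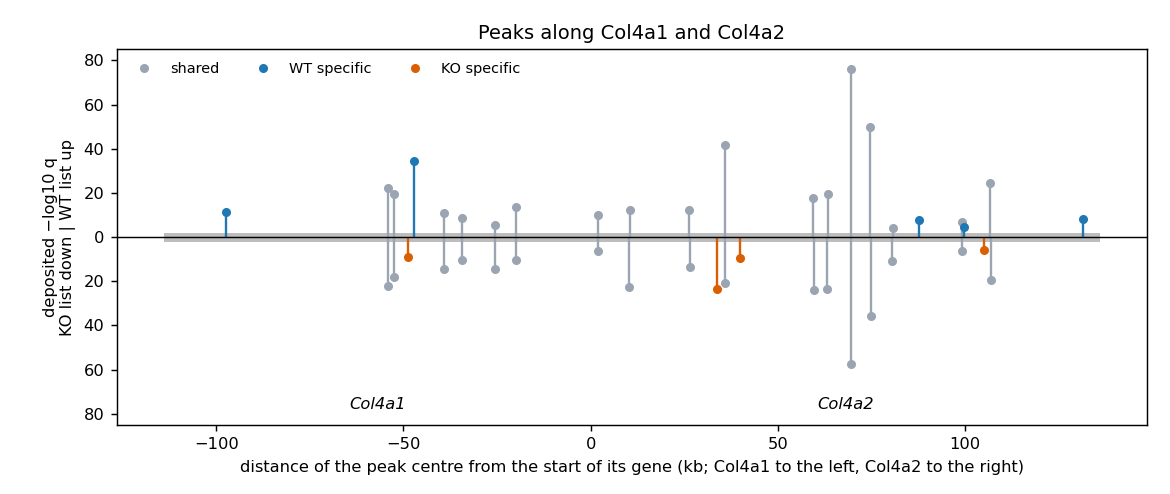
Peaks along Col4a1 (left) and Col4a2 (right), by distance of the centre from the start of the gene (kb), with the deposited −log10 q of WT peaks upwards and KO peaks downwards and the genes as grey bars. Most stems are paired grey ones. Blue and orange stems are specific peaks and have no partner, and the longest are the blue stem of Col4a1 at 34.6 and the orange stem of Col4a2 at 23.6.

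Col4a3, a chain of the kidney and lung form of type IV collagen, had a WT specific peak at chr1:82701602-82701781 (−log10 q 7.68), a KO specific peak at chr1:82634506-82634919 (8.79) and a shared peak 2.92 kb outside the gene that was also assigned to Mff. Its neighbour Col4a4 had none. Over the 4 type IV genes, 6 of 24 WT peaks (25.0%) were specific, as were 5 of 23 KO peaks (21.7%), beside 27.3% and 9.59% in the whole lists.

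Type VI collagen links muscle fibres to the surrounding matrix and is mutated in congenital muscle disease. Its 3 genes had 6 WT peaks and 4 KO peaks. WT peaks per 100 kb of gene and flanks were 2.68 at Col6a1, 2.09 at Col6a2 and 4.12 at Col6a3. The value over all protein-coding genes was 2.28. Col6a3 had 3 shared peaks in the gene, with a −log10 q of 10.7 to 34.0 in WT and 9.45 to 24.8 in KO, and a WT specific peak 4.69 kb outside it at chr1:90848499-90848885 (10.3). Col6a1 had no KO peak and 1 WT specific peak, 4.54 kb outside the gene at chr10:76730372-76730787 (9.32). Col6a2 had 1 shared peak, at its start (18.4 in WT and 19.1 in KO).

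The short-chain collagens of type VIII, made by vessel wall and cornea, had 5 WT specific peaks among 11 (45.5%, beside 27.3% in the whole list). Col8a1 had 3 of them, at chr16:57701763-57702095 (−log10 q 12.8), chr16:57715116-57715489 (4.27) and chr16:57750682-57750805 (4.86), and a KO specific peak just outside the gene, at chr16:57755248-57755593 (6.43). Its 4 shared peaks lay deeper in the gene, and the strongest had a −log10 q of 33.4 in WT and 24.8 in KO. Col8a2 had 2, at chr4:126291151-126291470 (10.8) and chr4:126309999-126310141 (8.05), and no KO number was missing beside either. The second was also assigned to Adprhl2. Col7a1, the anchoring fibril of skin, had 1 WT specific peak at chr9:108982591-108982779 (8.42), and all 3 of its WT peaks were also assigned to Ucn2 and Pfkfb4.

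Of the 26 WT peaks at FACIT genes, 10 (38.5%) were WT specific, and of the 17 KO peaks 1 (5.88%) was KO specific, beside 27.3% and 9.59% in the whole lists. Col14a1, which binds fibrils in tendon and muscle connective tissue, contributed 4. It had 5 WT peaks and a single KO peak. The WT specific peaks lay in the gene at chr15:55355930-55356317, chr15:55369969-55370404, chr15:55431246-55431481 and chr15:55440780-55441168, with a −log10 q of 8.11, 22.9, 10.2 and 17.5 and folds of 6.66, 12.1, 7.79 and 10.2. The shared peak fell between the weaker and the stronger of these, with 10.9 in WT and 8.88 in KO. Between the listed KO peaks around all 4, 5 KO numbers were missing.

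Col22a1 encodes a collagen of the myotendinous junction. It had 8 WT and 6 KO peaks, with 5 shared. Its shared peaks had a −log10 q of 19.9 to 29.2 in WT and 16.5 to 43.8 in KO. The WT specific peaks at chr15:71850376-71850737, chr15:72110565-72110845 and chr15:72128567-72128695 had 6.76, 15.9 and 1.33, and the last was among the weakest peaks of the list, whose lowest value was 1.31. A KO specific peak at chr15:72108570-72108717 had 6.34.

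Col12a1, another FACIT of muscle and tendon, had 6 WT and 5 KO peaks. Its WT specific peak at chr9:79617371-79617712, with a fold of 14.3 and a −log10 q of 24.7, ranked 185 of 9318. The 5 shared peaks had a −log10 q of 9.79 to 49.7 in WT and 10.1 to 41.0 in KO. Col16a1 had a WT specific peak 9.85 kb outside the gene at chr4:130109024-130109237 (6.23), also assigned to Pef1, and Col19a1 had a WT specific peak at chr1:24471053-24471590 (8.93), beside a strong shared one (57.2 in WT and 52.6 in KO).

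The multiplexins, whose cleaved ends include endostatin, had 9 WT specific peaks among 16 (56.2%) and 2 KO specific peaks among 9 (22.2%), beside 27.3% and 9.59% in the whole lists. These peaks lie at only 2 genes. Col15a1 (chr4:47207655-47313167), a basement membrane collagen of muscle, had 8 WT peaks and 3 KO peaks. The 5 WT specific peaks were spread from 11 kb after the start to 5.96 kb beyond the gene, at chr4:47218893-47219074, chr4:47234989-47235182, chr4:47250930-47251236, chr4:47303477-47303687 and chr4:47319022-47319229. Their −log10 q was 11.6, 4.99, 5.15, 8.35 and 4.88. The 3 shared peaks lay in the last part of the gene, on either side of the fourth specific peak, and were stronger, with 13.2, 41.1 and 66.4 in the WT list and 8.93, 32.5 and 49.2 in the KO list. Over the first 3 specific peaks, 7 KO numbers were missing.

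Col18a1 (chr10:77052178-77166530), the precursor of endostatin, had 8 WT and 6 KO peaks, 4 of them shared. The WT specific peaks were at chr10:77070233-77070409 (−log10 q 3.07), chr10:77076369-77076719 (9.84), chr10:77107802-77108222 (9.61) and chr10:77116543-77116854 (11.5). The KO specific peaks were at chr10:77098722-77098942 (11.9) and chr10:77151650-77151883 (8.48). The 4 shared peaks had 11.4 to 17.4 in the WT list, so that the WT specific peaks were the weaker ones apart from the last, which matched the weakest shared peak.

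Col28a1 (chr6:7997100-8193709), a collagen with von Willebrand factor A domains, had no WT peak and 3 KO peaks, all in the gene, at chr6:8105589-8106117, chr6:8135601-8135832 and chr6:8172191-8172466. Their −log10 q was 13.7, 6.68 and 8.28, and 2 WT numbers were missing over the stretch that holds all 3. Of the membrane collagens, Col25a1 had 2 WT specific peaks, at chr3:130197143-130197325 (5.35) and chr3:130264577-130265047 (6.98), beside 2 shared ones, and Col23a1 had 2 shared peaks.

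**Figure D5:**
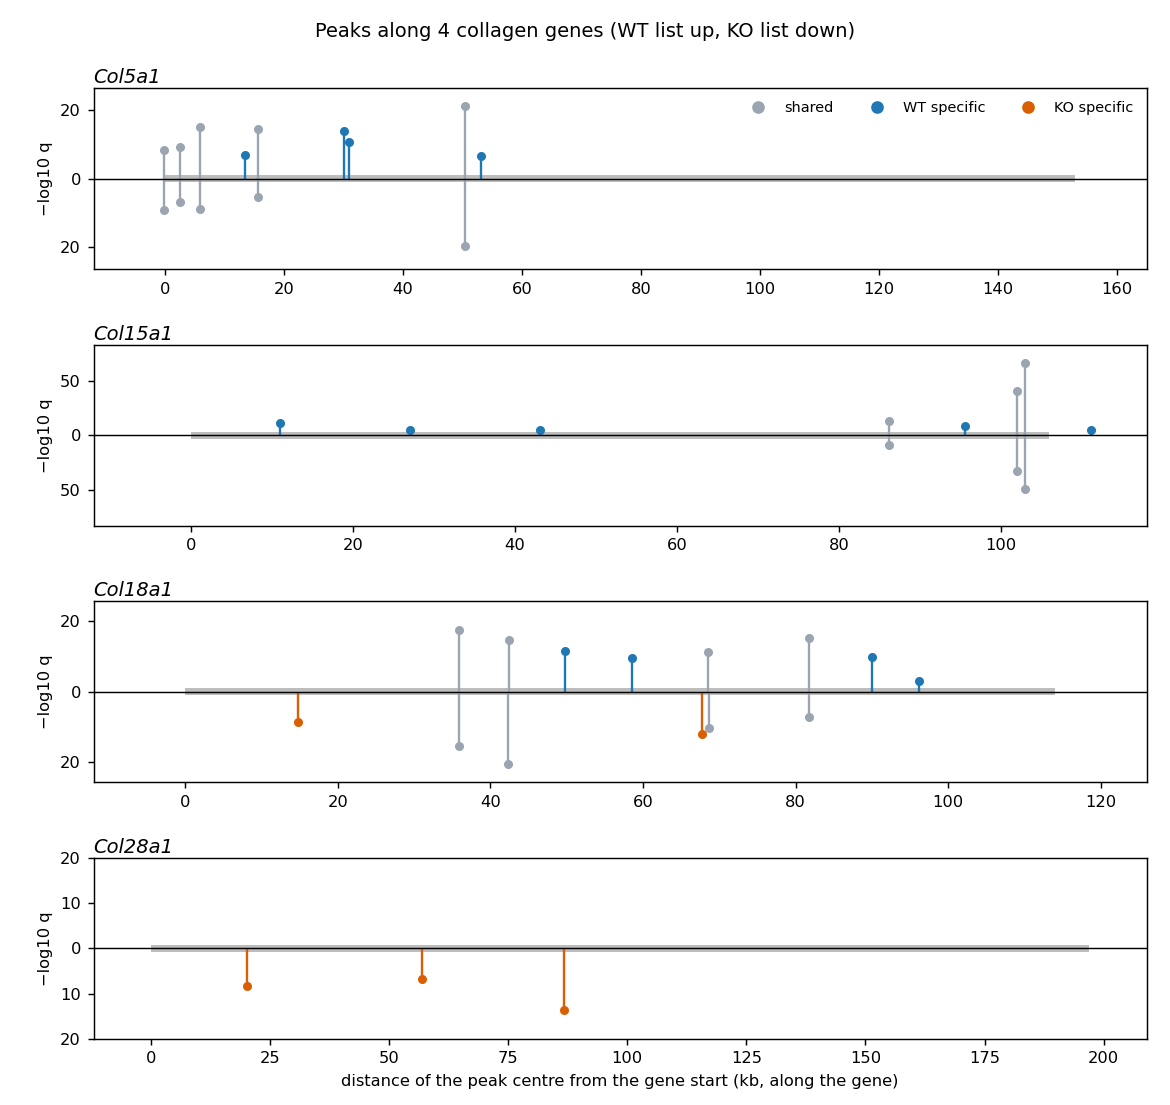
Peaks along Col5a1, Col15a1, Col18a1 and Col28a1 by distance of the centre from the start (kb), with the deposited −log10 q of WT peaks upwards and KO peaks downwards and the gene as a grey bar. In Col5a1, Col15a1 and Col18a1 WT specific peaks stand among and beyond the shared ones, and Col28a1 has KO specific peaks alone.

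A specific peak means that the deposited list of the other genotype has no peak there. At least 1 KO number was missing beside 42 of the 47 WT specific peaks at collagen genes (89.4%), and 86.9% of all WT specific peaks. At least 1 WT number was missing beside 11 of the 15 KO specific peaks (73.3%), and 87.3% of all KO specific peaks. The 5 WT specific peaks without a missing KO number were the one over the Col1a2 start, both at Col8a2, the one at Col5a3 and the weakest at Col22a1. The 4 such KO specific peaks were 1 at Col18a1, 1 at Col4a1 and 2 at Col4a2. The part of the skipped numbers in these peaks was not tested.

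Of the WT peaks of collagen genes, 16 were also assigned to a protein-coding gene that is no collagen, 5 of them WT specific. In the KO list this held for 11 peaks, none of them specific. Around the distance limit, 18 peaks of the lists lay 7 to 10 kb from a collagen gene, among them the WT specific peaks of Col27a1 at 9.31 kb and of Col16a1 at 9.85 kb. Beyond it, 11 lay at 10 to 13 kb, among them a WT specific peak 10.6 kb from Col6a2 (−log10 q 8.70).

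The 40 genes that modify, secrete, cleave, crosslink, bind or break down collagen had shares near those of the whole lists, 27.3% and 9.59%. Of their 104 WT peaks, 31 (29.8%) were WT specific, and of their 81 KO peaks, 8 (9.88%) were KO specific, and 35 genes had a peak. The enzymes that hydroxylate and fold the chains had 8 WT specific peaks among 37 (21.6%), the crosslinking oxidases 3 of 13 (23.1%), the receptors 8 of 24 (33.3%) and the proteases that break collagen down 4 of 12 (33.3%). In the KO list these groups had 2 of 31, 1 of 11, 2 of 18 and 0 of 8 KO specific peaks.

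The procollagen cleavage enzymes had 8 WT specific peaks among 18 (44.4%) and 3 KO specific peaks among 13 (23.1%), at 3 genes and 1 gene, beside 27.3% and 9.59% in the whole lists. Adamts2, which removes the N-propeptide of fibrillar procollagens, had 5 WT specific peaks among 7 and 2 KO peaks, both shared. Tll1, a protease that removes C-propeptides, had 3 KO specific peaks among 4 and 1 WT peak, which was shared. Adamts14, a relative of Adamts2, had 2 WT specific peaks among 4. Elsewhere on the list, WT specific peaks numbered 3 of 4 at the collagen-binding integrin gene Itga1, 2 of 6 at Itga11, which also had 1 KO specific peak, and 2 of 4 at the crosslinking enzyme Loxl1. They numbered 2 of 5 at P4ha3 and 2 of 3 at P3h3, both proline hydroxylases, and 2 of 6 at the gelatinase Mmp2.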

How the data were processed

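Per the submitters' processing notes the genome build is mm10. The aligner, peak caller, filters and handling of the Tn5 offset are not given in the sources used here. The 5 deposited lists (WT, KO, shared, WT specific, KO specific) have no header and the layout of narrowPeak files. By that layout, the deposited fold is the authors' fold enrichment, a ratio. The deposited −log10 q is also the authors' value for each peak. Both depend on library depth and were used to describe or filter peaks within a list. A further deposited column holds the summit offset and was not used.

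Peaks were assigned with a RefSeq gene table and promoter sequences of GRCm38.p6, the assembly of mm10. Coordinates are counted from 1. Of the 39 collagen genes, 30 matched a promoter sequence and took their start from it. Not matched were Col1a1, Col2a1, Col4a3, Col5a2, Col9a3, Col12a1, Col14a1, Col22a1 and Col26a1. Wilson intervals (95%) were computed for shares. Named with values were the genes with a specific peak, the 5 with the most WT peaks, those with no peak (by name), Runx1, and collagen processing genes with at least 2 specific peaks of 1 genotype. Genes with shared peaks alone were added after their values were seen. Collagen genes, subfamilies, the list of processing genes, marker lists and motif letters were chosen with earlier results of these data known. The calculations used Python 3.11.15, pandas 2.3.3 and scipy 1.17.1. Overlaps of the deposited lists were checked against bedtools 2.31.1, and peak assignment and intervals were checked on simulated data. Together these made 6 checks, and all 6 passed.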

Additional observations from a re-analysis of the deposited data

How the results depend on the processing

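The strength threshold moved the results most. With peaks of −log10 q of at least 10, 20.2% of WT and 6.85% of KO peaks at collagen genes were specific (14.4% and 4.49% of all such peaks), 12 collagen genes had a WT specific and 5 a KO specific peak, and 5 had a peak at a gene end. At or above the median of each list the values were 7.84%, 6.38% (6.17% and 1.45% of all such peaks), 3, 3 and 4. Fewer peaks enter these settings by construction. Peaks inside the gene alone gave 5 genes with a peak at a gene end. For these counts of genes, no share of all protein-coding genes at the same setting is given, so they have no background. In the other settings the share of WT specific peaks ran from 34.5% (window of 50 kb) to 40.8% (overlap of 50% of both peaks, where 35% of all WT peaks were specific), and that of KO specific peaks from 11% (window of 50 kb) to 21.4% (18.4% of all KO peaks). Leaving out Col4a2, the gene with the most WT peaks, gave 37.6% and 14.1%. Leaving out peaks also assigned to another gene, chosen after seeing the data, gave 36.8% and 17.2% (27.5% and 9.23% of peaks assigned to exactly 1 protein-coding gene). Of 675 peak counts at 25 single genes over 9 settings, 516 stayed within 1.5 times of their value and 159 did not. No paired analysis was possible because each list holds 1 set of peaks per genotype with no values by replicate, and for the same reason no replicate could be left out. Depth is unknown, so a missing weak peak was not distinguishable from lower depth.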

Other observations

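Collagen genes outside the list of 39 were also looked at. Of 5 such genes, 4 had a peak. Col4a6, a chain of smooth muscle basement membrane on chromosome X, had 2 peaks in each list, 1 shared and 1 specific to each genotype. Its neighbour Col4a5 had none. The type VI genes of chromosome 9 had 1 shared peak at Col6a4, 2 WT peaks at Col6a5, of which 1 was WT specific, and 2 shared peaks at Col6a6.

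The lists of specific peaks carry an unlabelled column that repeats the start of some peaks. It was filled for 1 of the 47 WT specific peaks at collagen genes (2.13%), at Col15a1, and for 10.7% of all WT specific peaks. It was filled for none of the 15 KO specific peaks at collagen genes and for 2.22% of all KO specific peaks. The sources used here give it no meaning.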
